A study of Mus musculus with 10 samples.

Results

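The kinesin motor genes of the mouse were followed across sperm and testes of control and cadmium-treated animals. They were taken as every gene with a RefSeq mRNA whose symbol begins with Kif and a number, with Kifc, or with Klc and a number, and the values of the transcripts of a gene were added up. By this rule 45 of the 16063 genes with a RefSeq mRNA were members, with 58 transcripts between them, and 11 members had several transcripts. The rule goes by name, so it also holds the light chains Klc1 to Klc4 and Kif1bp, which encodes a protein that binds and holds back kinesins and is not itself a motor. It leaves out Cenpe, a spindle kinesin with another kind of name.

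The 10 RNA samples came from C57BL/6 males (C57BL/6J in the study's methods), given 1 intraperitoneal injection of saline (control) or of CdCl2 at 3 mg/kg (cadmium) and killed on day 35. The labels give an age of 3 to 5 months, and the study's methods a range that begins younger. There were 4 samples of control sperm, 2 of cadmium sperm, 2 of control testes and 2 of cadmium testes, and no sample carried a genetic change. Control sperm was pooled from several mice, swam out of the vas deferens and cauda epididymis and was cleared of somatic cells. Ribosomal RNA was removed from total RNA, which was then sequenced with its strand kept. The deposited tables gave, for each transcript, an expected count (an estimate of its fragments, not normalized) and an FPKM (fragments scaled to the length of the transcript and the size of the library). The study left control sperm 1 out for its low correlation with the other pools, and so did the main fits here, with its value still given.

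Kinesins are ATP-driven motors that walk along microtubules or take them apart at their ends. Some carry vesicles, organelles and RNA, with light chains holding the cargo, others build and time cilia and flagella, and others move chromosomes and spindle poles in mitosis and meiosis. In the testis, dividing germ cells assemble spindles and round spermatids grow a flagellum and reshape the nucleus along a microtubule skirt called the manchette. Mature sperm are held to be transcriptionally silent, and their RNA is taken to be left over from these stages.

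The results turned on a few members, and for 4 of these the start region can be shown, from 250 bases before the transcription start to 50 after it, in RefSeq's annotation of GRCm38.p6 (the same assembly as mm10, which the submitters' processing notes name). Kifc5b (chr17:26916841-26917140, plus strand) was the leading kinesin of every sperm sample, and Kifc1 (chr17:33890584-33890883, minus strand) is its near copy on the same chromosome. Kif3c (chr12:3364882-3365181, plus strand) and Kif7 (chr7:79715658-79715957, minus strand) were the leading kinesins of testes. Capitals mark CCAAT boxes (CCAAT or its reverse ATTGG), CHR elements (TTTGAA or its reverse TTCAAA), letters found near the starts of many cell cycle genes, and GC boxes (GGGCGG or its reverse CCGCCC).
Kifc5b: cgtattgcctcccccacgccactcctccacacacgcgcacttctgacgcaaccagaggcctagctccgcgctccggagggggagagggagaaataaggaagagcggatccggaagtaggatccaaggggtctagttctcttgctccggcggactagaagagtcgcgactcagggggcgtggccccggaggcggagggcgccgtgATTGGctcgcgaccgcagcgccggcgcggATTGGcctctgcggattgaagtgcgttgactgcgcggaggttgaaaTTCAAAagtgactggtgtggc
Kifc1: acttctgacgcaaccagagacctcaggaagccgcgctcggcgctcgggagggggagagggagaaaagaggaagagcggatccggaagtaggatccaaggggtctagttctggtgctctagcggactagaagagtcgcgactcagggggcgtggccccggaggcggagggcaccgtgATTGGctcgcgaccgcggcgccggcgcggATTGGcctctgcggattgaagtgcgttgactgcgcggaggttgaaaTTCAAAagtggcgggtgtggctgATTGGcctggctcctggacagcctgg
Kif3c: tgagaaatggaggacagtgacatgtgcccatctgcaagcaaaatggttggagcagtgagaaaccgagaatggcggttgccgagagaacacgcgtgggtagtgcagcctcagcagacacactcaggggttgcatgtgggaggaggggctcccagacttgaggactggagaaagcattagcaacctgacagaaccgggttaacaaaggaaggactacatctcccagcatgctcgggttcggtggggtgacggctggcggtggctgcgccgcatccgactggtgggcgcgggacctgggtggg
Kif7: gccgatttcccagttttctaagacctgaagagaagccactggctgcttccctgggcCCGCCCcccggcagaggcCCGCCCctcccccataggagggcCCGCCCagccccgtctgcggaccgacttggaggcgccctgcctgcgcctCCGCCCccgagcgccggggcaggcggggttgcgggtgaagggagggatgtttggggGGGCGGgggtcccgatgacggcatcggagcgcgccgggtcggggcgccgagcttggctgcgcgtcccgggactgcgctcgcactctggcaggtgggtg

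The Kifc5b and Kifc1 windows, shifted by 28 bases against each other, were identical at 239 of 272 aligned bases (87.9%), which shows how much the loci resemble each other. Kifc5b held 2 CCAAT boxes, beginning at -46 and -17 counted from the start, and a CHR element at 29, while Kifc1 held 3 and 1. Kif7 held 5 GC boxes and neither of the other motifs, and Kif3c held none of the 3.

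Of the 45 members, 36 had such a window in the RefSeq table, among them 14 of the 15 spindle members. A CHR element was found in 14 of the 36 (38.9%) against 20.2% of the 27025 genes in the table, and 11 of the 14 were spindle members. A CCAAT box was found in 19 (52.8% against 41.1% of all genes) and a GC box in 24 (66.7% against 38.2%). The cyclic AMP element TGACGTCA, which reads the same on both strands, was found in 4, namely Kif17, Kif18a, Kif5c and Klc1 (11.1% against 2.03%), and TATAAA or its reverse TTTATA in 5 (13.9% against 15.7%). Both strands were searched, matches of different motifs were counted also where they overlap, and a match is a description of the letters and not a site in use.

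The tables held between 366455 and 1058017 counts for a control sperm pool, 1155491 and 1254477 for cadmium sperm, and 2606086 to 2866856 for testes, so that 3 counts were between 0.000105% and 0.000819% of a sample (counting error only). RefSeq mRNAs took 9.14% to 13.59% of these counts. Prm2, which packs sperm DNA, stood at 183.72 to 438.21 FPKM in sperm and 147.34 to 280.94 in testes. Prm1 was lower in sperm (0 to 40.12 FPKM, with control sperm 3 at 0) than in testes (117.96 to 135.58). The whole spermatid and sperm list summed to 367.48 to 592.76 FPKM in sperm and 542.3 to 637.91 in testes. Of its 11 genes, Tssk6 (12.77 to 167.49 FPKM in sperm and 6.48 to 10.6 in testes) was called higher in sperm in both kinds of mice and Spem1 in cadmium mice, while Prm1 and Tnp1 (0 to 6.21 and 88.12 to 139.96) were called lower in both, Odf1 in control mice, and Akap4 and Tnp2 in cadmium mice. Of the 9 spermatocyte markers, none was above 0 in any control sperm pool and 1, Sycp3 at 3.18 FPKM, was above 0 in cadmium sperm 1, while the list summed to 4.67 to 12.49 FPKM in testes. Kit was at 0 in all sperm. Cd4 was at 0 in 3 of the 4 control pools and at 1.69 and 1.04 FPKM in cadmium sperm, and Cdh1 was at 0 in all control sperm and all testes and at 0.2 and 0.54 in cadmium sperm. Epcam, another epithelial marker, was at 0 to 6.77 FPKM in sperm, with only control sperm 4 at 0, and 2.09 to 4.94 in testes. The Leydig cell list summed to 27.49 FPKM in control sperm 3, all of it Star, against 0 to 4.31 in the other control pools. The spermatogonia list summed to 0.43 to 3.75 FPKM in sperm and 24.77 to 30.21 in testes, where Gfra1 gave 19.18 to 26.95. For Sertoli cells the sums were 0 to 14.82 in sperm and 2.27 to 5.14 in testes, for endothelium 0 to 0.51 and 0.74 to 1.25, for leukocytes 0 to 5.3 and 2.88 to 4.07, and for epididymal epithelium 2.85 to 14.96 and 11.33 to 22.63. Among the markers of these other lists, Gfra1, Mns1 and Insl3 were called lower in sperm in both kinds of mice and Sycp1, Nanos3 and Lyz2 in control mice, and Amhr2 was called higher in cadmium sperm. In the comparisons that called them, Odf1, Akap4, Mns1, Insl3, Sycp1, Nanos3 and Lyz2 passed the filter only through testes samples. Amhr2 passed it only through sperm samples. The part of other cells in the results below was not tested, and in such bulk samples fewer cells of a type and less RNA per cell cannot be told apart.

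Kinesins as a whole were listed at 74.3 to 110.83 summed FPKM in control sperm, with control sperm 1 the highest, and at 113.92 and 136.19 in control testes. Cadmium sperm held 113.9 and 94.47 and cadmium testes 123.29 and 129.37. The ratio of sperm to testes was 0.635 in control samples without control sperm 1 and 0.825 in cadmium samples. In counts, kinesins took 0.236% to 0.34% of the RefSeq mRNA counts of a sperm sample and 0.418% to 0.447% of those of a testes sample, so the ranges did not overlap.

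The number of members above 0 was 8 to 25 in control sperm, 28 and 31 in cadmium sperm, and 35 to 38 in testes, which were the deepest samples. Above 0 in every sample were 4 members, Kif20a, Kif21b, Kif3c and Kifc5b. At 0 in all 6 sperm samples were 8, Kif16b, Kif18a, Kif1b, Kif20b, Kif3a, Kif4, Kif5a and Klc4, of which Kif3a reached the most in testes, with 9 counts. At 0 in all 4 testes samples were Kif26a and Kif6, each with at most 2 counts in any sperm sample. In no sample did 9 members reach 3 counts, so nothing can be said of their levels.

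**Figure D1:**
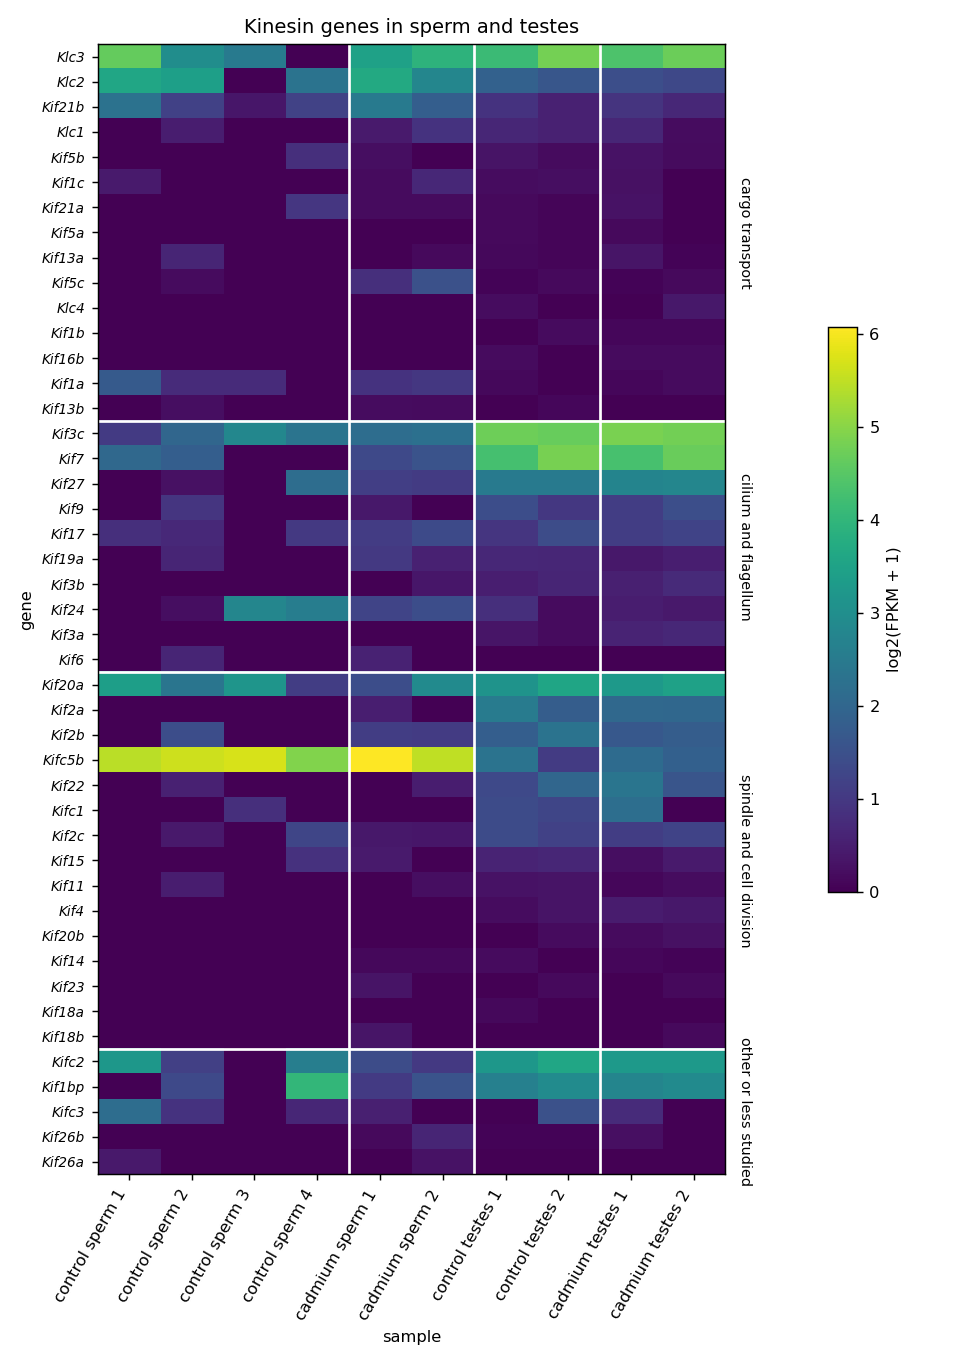
Level of the 45 kinesin genes (rows, grouped by role) in the 10 samples (columns), as log2(FPKM + 1) on a colour scale from 0 upwards. Kifc5b is the brightest row of the 6 sperm columns, at 29.52 to 66.38 FPKM, while Kif3c, Kif7 and Klc3 are the brightest in the 4 testes columns.

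Sperm and testes differed in which kinesins led. In sperm 1 gene, Kifc5b, made up 38.6% to 66.1% of all kinesin FPKM of a sample. In testes no member passed 22.6%, and 3 members, Kif3c, Kif7 and Klc3, together made up 55.8% of the mean kinesin FPKM of control testes. By mean FPKM Kifc5b was rank 108 among all genes with a RefSeq mRNA in control sperm 2 to 4 and rank 2525 in control testes, while Kif3c went from rank 264 in control testes to rank 1230 in control sperm.

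The first comparison asked which kinesin RNAs differ between mature sperm and the whole testis in control mice. Of the 45 members, 17 passed the filter of 1 FPKM in at least 2 of the 5 samples (control sperm 2 to 4 and both control testes), and 4 passed the test, which asked for an adjusted p under 0.05 and more than a 2-fold difference. Kifc5b was higher in sperm, and Kif3c, Kif7 and Kif2a were lower. Over all 24432 features tested, of any RNA class, 22.2% passed (4.23% higher in sperm and 17.9% lower), so 1 higher and 3 lower of 17 is a share near the background. The median log2 fold change was -2.14 over the 17 members and -1.24 over all features (-2.18 and -1.39 with the fit kept to RefSeq mRNA genes), and 13 of the 17 had a negative value. The same comparison in cadmium mice, which shares no sample with this one, also had 17 members that passed the filter, and 10 were called, against 31.6% of the 25780 features (16.2% higher and 15.4% lower). There Kifc5b, Kif21b, Kif24 and Klc2 were higher in sperm and Kif22, Kif27, Kif2a, Kif3c, Kif7 and Kifc2 lower, and the median was -1.76 over members and -0.30 over all features. In control mice, 9 of the 17 members tested had every sperm sample of the fit below every testes sample, and 1 above. Of all features tested there, 44.8% were so below and 7.52% above. In cadmium mice 12 of 17 members were so below and 4 above, against 41.9% and 24.6% of all features. The number of members called fell to 1 in control mice without control sperm 4 or control testes 2, and in cadmium mice to 6 without cadmium sperm 1 or cadmium testes 2 and to 0 without cadmium testes 1. The p-values measure the spread between these samples, and by the study's methods the control testes came from the mice whose sperm was pooled, so the control groups shared animals while the fit treated them as independent. How the cadmium samples were divided among animals is not given in the sources used here.

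Among the spindle and division motors, Kifc5b is a kinesin of the C-terminal group, whose motors walk towards the minus end of microtubules. The gene is at chr17:26917091-26932579. Its FPKM was 42.73, 47.65, 51.07 and 29.52 in control sperm 1 to 4, 66.38 and 44.13 in cadmium sperm, against 3.95 and 1.08 in the control and 3.36 and 2.61 in the cadmium testes. Every sperm sample was above every testes sample. In control mice the log2 fold change was 3.96 (SE 0.98, 15.6-fold, edgeR adjusted p = 0.00275), and in cadmium mice 4.44 (SE 0.62, 21.7-fold, edgeR adjusted p = 7.62e-11). Without control testes 2 the adjusted p in control mice was 0.172 with a log2 fold change of 3.08, and without cadmium testes 1 that in cadmium mice was 0.104 with 4.28.

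Kifc1, the better known near copy of Kifc5b, crosslinks spindle microtubules and in spermatids lies along the manchette and the acrosome. It stood at 0 in all sperm samples but control sperm 3 (0.75 FPKM), and in testes at 1.63, 1.43, 3.58 and 0 FPKM, the 0 in cadmium testes 2. Reads that fit either gene were divided by the authors' estimate, as the part counts show (131.2 for Kifc5b in control sperm 2 and 23.2 for Kifc1 in cadmium testes 1), so the level of each alone is uncertain. With the FPKM of the pair added, sperm held 29.52 to 66.38 and testes 2.51 to 6.94, and the groups still did not overlap. Fitted as 1 feature, an alternative chosen after the values were seen, the pair was higher in sperm by a log2 fold change of 3.30 in control mice (edgeR adjusted p = 0.0116) and 3.89 in cadmium mice (edgeR adjusted p = 4.47e-09).

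Kif2a, Kif2b and Kif2c encode kinesins that do not walk but take microtubule ends apart. Kif2a (chr13:106958996-107022355) was at 0 in all 4 control sperm pools, 0.43 and 0 FPKM in cadmium sperm, against 4.81 and 2.49 in the control and 3.18 and 3.06 in the cadmium testes. It was called lower in sperm in both kinds of mice. With 0 counts in control sperm 2 to 4 and a floor of 3 counts over the group, its share of the counts was at least 9.97-fold lower in sperm than in control testes (edgeR adjusted p = 0.032, but 0.132 without control sperm 4). In cadmium mice it had 2.1 counts in sperm against 72.4 in testes, a ratio of testes to sperm of 15.6 with an exact 95% counting interval of 4.17 to 131 (edgeR adjusted p = 0.00222, but 0.0526 without cadmium sperm 2). At the share it had in control testes, Kif2a would have had 16.1, 5.6 and 7.7 counts in control sperm 2, 3 and 4, each above the floor of 3 counts. Kif2a passed the filter only through testes samples, as did Kif22. Kif2b and Kif2c had means of 3.23 ± 1.03 and 1.435 ± 0.262 FPKM in control testes (SD, n = 2) and were called in neither comparison.

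Kif20a, which works at the midzone when dividing cells separate, was the spindle motor with the highest mean in testes. Its FPKM was 9.58, 4.10, 7.94 and 1.14 in control sperm, 1.70 and 6.50 in cadmium sperm, against 7.67 and 10.94 in the control and 8.82 and 10.21 in the cadmium testes. Control sperm overlapped control testes, and the gene was called in neither comparison (log2 fold changes of -1.46, SE 1.11, and -0.93, SE 0.58), though without cadmium sperm 2 it passed in cadmium mice (-2.34, edgeR adjusted p = 0.0253). Kif22, a motor on chromosome arms, was lower in cadmium sperm, where it had 1 count, than in cadmium testes, where it had 35, a ratio of testes to sperm of 15.2 with a counting interval of 2.55 to 617 (edgeR adjusted p = 0.0328, but 0.174 without cadmium sperm 1). In control mice it had 1 count in sperm 2 to 4 against 25 and did not pass (edgeR adjusted p = 0.15). The other spindle motors, Kif4, Kif11, Kif14, Kif15, Kif18a, Kif18b, Kif20b and Kif23, reached at most 7 counts in any sample, and none passed the filter. Kif11, the plus-end motor that pushes spindle poles apart, stood at 0.07 to 0.24 FPKM in testes. Of the 15 spindle members, 7 were tested in control mice, with 1 called higher in sperm and 1 lower (4.23% and 17.9% of all features). In cadmium mice 6 were tested, with 1 called higher and 2 lower (16.2% and 15.4% of all features). The spermatocyte markers, from cells that build meiotic spindles, moved with the lower members, at 0 in control sperm against sums of 9.22 and 12.49 FPKM in control testes, and their part in these values was not tested.

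The cilium and flagellum members held most of the kinesin RNA that was low in sperm. The 10 members summed to 53.54 to 62.48 FPKM in the 4 testes samples and to 4.95 to 13.5 in the 6 sperm samples. Of the 10, 5 were tested in control mice, with 2 called lower in sperm and none higher, where 17.9% of all features were lower. In cadmium mice 6 were tested, with 3 called lower and 1 higher, where 15.4% of all features were lower and 16.2% higher.

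Kif3c (chr12:3365132-3406494) encodes a kinesin-2 subunit that pairs with Kif3a. Its FPKM was 1.03, 3.03, 6.00 and 4.02 in control sperm, 3.53 and 3.72 in cadmium sperm, against 25.69 and 24.48 in the control and 27.73 and 26.56 in the cadmium testes, so each sperm sample was far below each testes sample. The log2 fold change was -2.83 in control mice (SE 0.75, 7.09-fold lower, edgeR adjusted p = 0.0066) and -2.67 in cadmium mice (SE 0.58, 6.35-fold lower, edgeR adjusted p = 5.41e-05). Without control sperm 4 the adjusted p in control mice was 0.14, and without cadmium testes 1 that in cadmium mice was 0.104. At its share of the counts in control testes, Kif3c would have had 181.5, 62.9 and 87.2 counts in control sperm 2 to 4, where 22, 15 and 14 were listed.

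The other kinesin-2 genes were far below Kif3c in the same samples. Kif3a and Kif3b together pull cargo up the growing axoneme, the microtubule core of a cilium or flagellum. Kif3a stood at 0.14 to 0.61 FPKM in testes and Kif3b at 0.43 to 0.66, against 24.48 to 27.73 for Kif3c, and in sperm only Kif3b was above 0, in cadmium sperm 2 (0.28). Kif17, the kinesin-2 that forms dimers with itself and moves between nucleus and cytoplasm of spermatids, was at 0 to 1.01 FPKM in control sperm, 1.13 and 1.56 in cadmium sperm, and 0.91 to 1.68 in testes, and passed in neither comparison. It was also the single member of the 16 tested in both comparisons whose fold changes had opposite signs (-1.40, SE 1.52, and 0.44, SE 0.89).

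Kif7 (chr7:79698098-79715772) sits at the tip of primary cilia and tunes Hedgehog signalling. Its FPKM was 3.15, 2.52, 0 and 0 in control sperm, 1.53 and 1.95 in cadmium sperm, against 18.53 and 27.32 in the control and 18.76 and 24.88 in the cadmium testes, again without overlap. The log2 fold change was -4.53 in control mice (SE 1.01, edgeR adjusted p = 0.000689) and -3.43 in cadmium mice (SE 0.63, 10.8-fold lower, edgeR adjusted p = 8.38e-07). At its share in control testes it would have had 109.1, 37.8 and 52.4 counts in control sperm 2 to 4, where 12, 0 and 0 were listed. The call in control mice was lost without control sperm 4 (adjusted p = 0.0606) and without control testes 2 (0.0835), and the log2 fold change went to -10.48 without control sperm 2, the only pool of the fit with counts. Without cadmium testes 1 the adjusted p in cadmium mice was 0.104.

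Kif27, a relative of Kif7 that motile cilia need, was at 4.64 and 4.59 FPKM in control testes, 5.71 and 5.91 in cadmium testes, and 1.17 and 1.07 in cadmium sperm. In control sperm it was at 0, 0.21 and 0 in pools 1 to 3 and at 3.54 in pool 4. It was lower in sperm in cadmium mice (log2 fold change -2.14, SE 0.68, edgeR adjusted p = 0.00862), a call that was lost without cadmium sperm 1 (0.0672), cadmium testes 1 (0.129) or cadmium testes 2 (0.0998), and it did not pass in control mice (-2.14, SE 1.39, edgeR adjusted p = 0.267).

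Kif24, which trims centriole microtubules and holds back cilium growth, went the other way. Its FPKM was 0, 0.17, 5.88 and 4.93 in control sperm, 1.39 and 1.71 in cadmium sperm, against 0.76 and 0.14 in the control and 0.39 and 0.33 in the cadmium testes. It was higher in cadmium sperm (log2 fold change 2.36, SE 0.87, edgeR adjusted p = 0.026), though not without cadmium testes 1 (0.241) or cadmium testes 2 (0.162), and it did not pass in control mice (2.70, SE 1.57, edgeR adjusted p = 0.208). The control pools ranged from 0 to 14 counts, and in both comparisons Kif24 passed the filter only through sperm samples, with all testes under 1 FPKM.

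The kinesin-9 motors Kif9 and Kif6, which are known from motile flagella, were low. Kif9 was at 0.98 to 1.77 FPKM in testes, 0.90 in control sperm 2 and 0 in the other control pools, and 0.32 and 0 in cadmium sperm, and it did not pass in cadmium mice (log2 fold change -3.10, SE 1.38, edgeR adjusted p = 0.0691). Kif6 was at 0 in testes and had 2 counts each in control sperm 2 and cadmium sperm 1. Kif19a, which shortens cilia, was at 0.31 to 0.61 FPKM in testes.

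**Figure D2:**
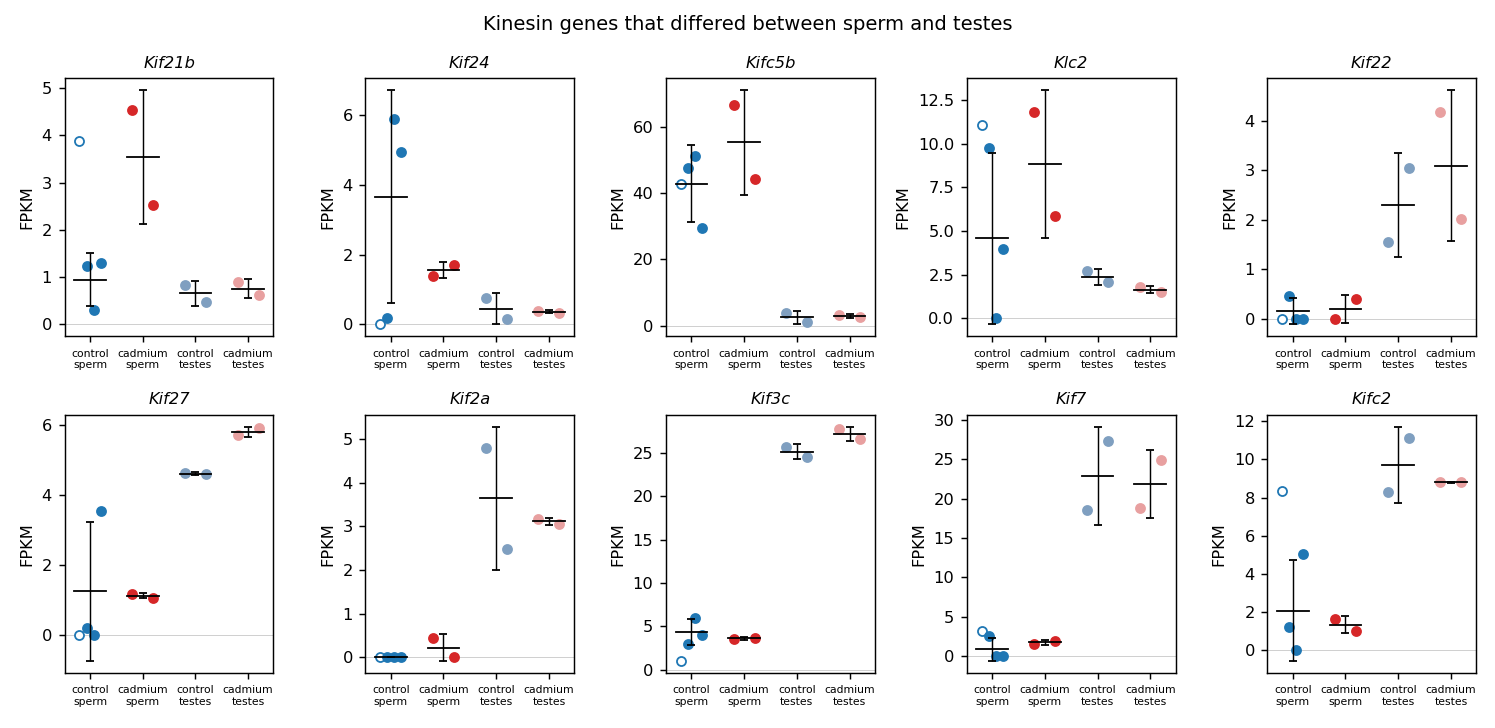
FPKM of the 10 kinesin genes called in a comparison of sperm with testes, by group. Points are samples (the open point is control sperm 1, left out of the fits), lines are means and bars the SD of the other samples. Kifc5b is above its testes samples in all 6 sperm samples, and Kif3c, Kif7 and Kif2a are below theirs in all 6.

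Among the cargo members, light chains were listed at far higher levels than heavy chains. Kinesin-1, the main plus-end cargo motor, is built of heavy chains from Kif5a, Kif5b or Kif5c and light chains from Klc1 to Klc4. The 3 heavy chain genes summed to 0.25 to 0.40 FPKM in testes and to 0 to 1.86 in sperm, while the 4 light chain genes summed to 20.07 to 29.34 in testes and to 3.95 to 34.89 in sperm.

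Klc3, a light chain of spermatids that binds mitochondria and the outer dense fibres of the tail, carried most of this in testes. Its FPKM was 23.83, 6.87, 4.61 and 0 in control sperm, 10.15 and 14.26 in cadmium sperm, against 16.65 and 26.80 in the control and 19.76 and 25.35 in the cadmium testes. Control sperm 1 stood with the testes and the other 3 pools below them. The difference did not pass in control mice (log2 fold change -2.63, SE 1.17, edgeR adjusted p = 0.0951) nor in cadmium mice (-0.66, SE 0.56, edgeR adjusted p = 0.385).

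Klc2 had the opposite order, at 11.06, 9.78, 0 and 3.95 FPKM in control sperm, 11.84 and 5.86 in cadmium sperm, against 2.69 and 2.06 in the control and 1.77 and 1.49 in the cadmium testes. It was higher in cadmium sperm (log2 fold change 2.64, SE 0.65, 6.22-fold, edgeR adjusted p = 0.000438, but 0.165 without cadmium testes 1). In control mice, where control sperm 3 was at 0, it did not pass (0.97, SE 1.40, edgeR adjusted p = 0.655).

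Kif21b, a motor that stops microtubule growth and is known from neurons and lymphocytes, was at 3.87, 1.24, 0.30 and 1.29 FPKM in control sperm, 4.54 and 2.53 in cadmium sperm, against 0.84 and 0.46 in the control and 0.89 and 0.61 in the cadmium testes. It too was higher in cadmium sperm (log2 fold change 2.46, SE 0.62, edgeR adjusted p = 0.000558, but 0.152 without cadmium testes 1) and did not pass in control mice (0.47, SE 1.48, edgeR adjusted p = 0.851). Here too only sperm samples carried it through the filter, with all testes under 1 FPKM.

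Some members that the filter kept out had counts in cadmium sperm, and they were picked out after their values were seen. Kif5c, a heavy chain best known from neurons, had 6 and 16 counts in cadmium sperm, 1 count in the 4 control sperm pools together, and 1 or 2 in each testes sample. In FPKM that was 0.76 and 1.86 in cadmium sperm and 0 to 0.14 in the rest. Fitted without the filter, Kif5c was higher in cadmium sperm than in cadmium testes (log2 fold change 3.96, SE 1.03, edgeR adjusted p = 0.00217), while cadmium against control sperm did not pass (3.97, SE 2.10, edgeR adjusted p = 0.832). Kif1a, a carrier of synaptic vesicle precursors, had 8, 6, 2 and 0 counts in control sperm, 8 and 10 in cadmium sperm, and 0 to 3 in testes. Without the filter it was higher in cadmium sperm (2.99, SE 0.99, edgeR adjusted p = 0.0268) and not called in control mice (3.14, SE 1.56, edgeR adjusted p = 0.263). Of the 27 members that only this fit could test in cadmium mice, 3 were called, the third being Kifc1, which was lower with no count in cadmium sperm and 23.2 in cadmium testes, all of them in cadmium testes 1. The share called over all features of this fit is not given here, so these 3 calls are not set against a background.

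Of the other members, Kifc2, a C-terminal kinesin best known from neurons, was at 8.33, 1.21, 0 and 5.05 FPKM in control sperm, 1.66 and 1.02 in cadmium sperm, against 8.30 and 11.12 in the control and 8.82 and 8.79 in the cadmium testes. It was lower in cadmium sperm (log2 fold change -2.49, SE 0.70, 5.63-fold lower, edgeR adjusted p = 0.00238, but 0.123 without cadmium testes 1) and did not pass in control mice (-2.43, SE 1.26, edgeR adjusted p = 0.155). Control sperm 1 reached the level of control testes 1. Kif1bp was at 5.30 to 6.63 FPKM in testes and 1.06 and 1.96 in cadmium sperm. In control sperm it was at 0, 1.55, 0 and 15.3, so that 1 pool was above every testes sample and 2 had none, and it passed in neither comparison. Kifc3 was between 0 and 3.48 FPKM with no order by group, and Kif26a and Kif26b reached at most 5 counts.

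**Figure D3:**
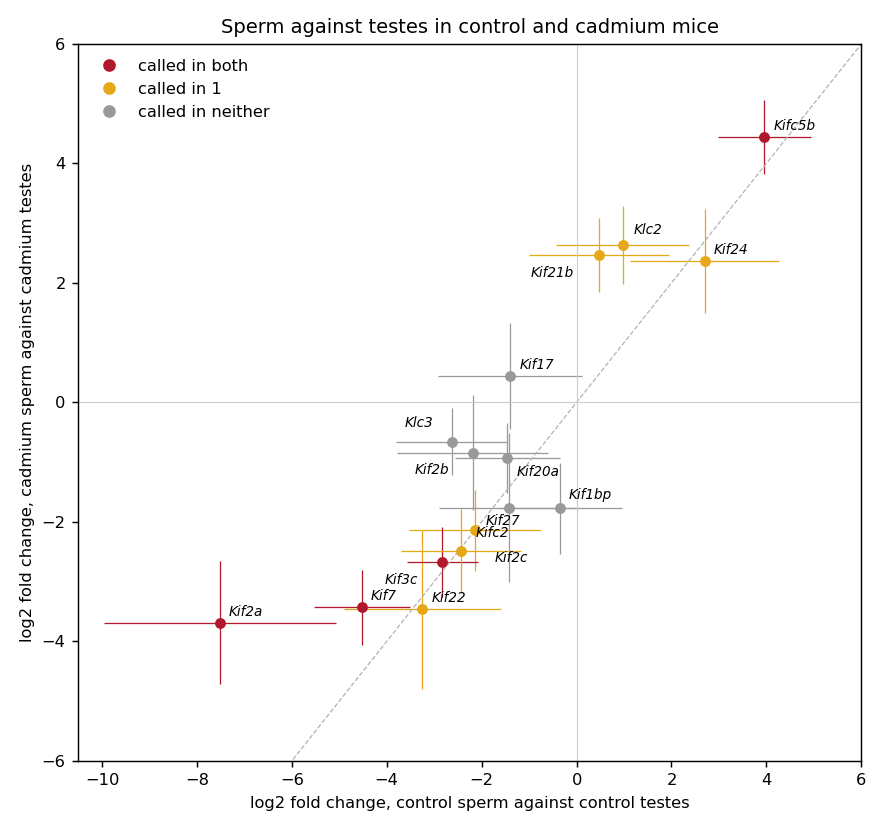
Log2 fold change of sperm against testes in control mice (horizontal axis) and in cadmium mice (vertical axis) for the 16 kinesin genes tested in both, with SE as bars and the line of equal values dashed. Kifc5b is at the upper right (3.96 and 4.44), Kif2a, Kif7 and Kif3c are at the lower left, and Kif17 is the only gene with opposite signs.

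The fold changes of the 2 tissue comparisons may be set side by side, as they use different mice. Of the 16 members tested in both, 15 had the same sign, 4 were called in the same direction in both (Kifc5b, Kif3c, Kif7 and Kif2a), and across members Pearson's r was 0.88, a description over genes that share libraries. The 6 members called only in cadmium mice are not thereby shown to differ between control and cadmium mice, and the test of that difference, given further on, called none. Without cadmium testes 1, 1 testes sample was left, which was assumed to vary like the sperm samples, and no feature of any kind was called, of 19750 tested. In that fit the log2 fold changes of Kifc5b, Kif3c and Kif7 were 4.28, -2.99 and -3.94.

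Kif20a held a difference among its transcripts that the sum by gene does not show. The tables give it 3 RefSeq transcripts of 3473 to 3579 bases, NM_009004, NM_001166406 and NM_001166407. In control sperm all counts (14, 15, 10 and 2) were on NM_009004, and in cadmium sperm all counts (7 and 29) were on NM_001166407. The 4 testes samples had no count on NM_009004, 55.8 to 84.3 on NM_001166407 and 13.9 to 22.2 on NM_001166406. Tested by transcript, NM_009004 was higher in control sperm than in control testes (log2 fold change 7.21, SE 2.24, edgeR adjusted p = 0.025). NM_001166407 and NM_001166406 were lower (edgeR adjusted p = 0.00662 and 0.043). There NM_009004 passed the filter only through sperm samples, and NM_001166407 and NM_001166406 only through testes samples. The share of all transcripts called is not given here, so these calls are not set against a background. Cadmium against control sperm did not pass for NM_009004 or NM_001166407 (edgeR adjusted p = 0.543). A gene whose leading transcript was 1 and the same in all 4 control pools and another in both cadmium samples was seen in 4 of the 169 genes with several transcripts and at least 2 counts in each sperm sample (2.37%), namely Eif5, Kif20a, Rundc3a and Zfp12, a search made after the Kif20a counts were seen. Whether the control and cadmium tables were quantified in 1 run is not given in the sources used here.

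How the estimate divides reads between transcripts of 1 gene also varied between samples of 1 group. Kif17 had all 8 counts of control testes 1 on NM_001190978 and all 17 of control testes 2 on NM_010623. Kif2c had all 13 counts of control testes 1 on NM_134471 and all 9 of control testes 2 on NM_001290662. For these genes the transcript of the higher level changed within a group, and for Kif20a in testes it did not.

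**Figure D4:**
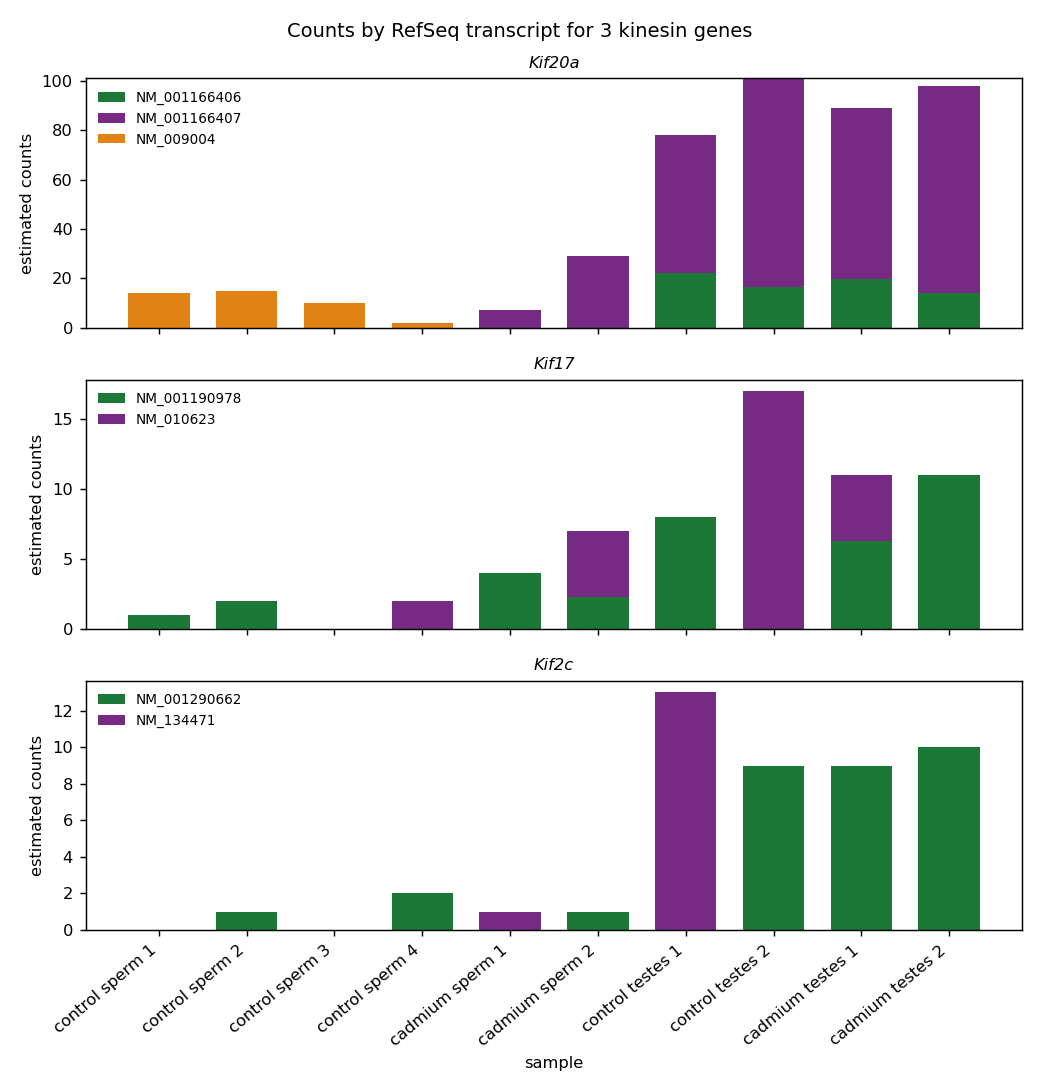
Expected counts of Kif20a, Kif17 and Kif2c in each of the 10 samples, stacked by RefSeq transcript (colours). For Kif20a the 4 control sperm bars are a transcript that no other bar holds, and for Kif17 and Kif2c the transcript differs between the 2 control testes samples.

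The comparisons within a tissue asked whether cadmium moved kinesin RNAs 35 days after the injection. No member was called in either tissue. In testes 16 members were tested, where 4 of all 26721 features were called (0.015%). No member had an unadjusted p under 0.05 by edgeR (the lowest was 0.419, for Kif27), where 0.805% of all features did. The log2 fold changes lay between -0.46 (Klc2, SE 0.61) and 0.41 (Kif22, SE 0.67, and Kif27, SE 0.49). Kif3c, Kif7 and Klc3, the leading kinesins of testes, differed by 0.18 (SE 0.48), -0.02 (SE 0.51) and 0.10 (SE 0.51), or by 1.13-fold at most. These SE leave room for changes of some size, and the 2 samples a group do not show that the levels were alike.

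In sperm 13 members were tested, where 14 of all 20637 features were called (0.0678%). Again no member had an unadjusted p under 0.05 by edgeR, where 6.5% of all features did. The lowest unadjusted p was 0.138, for Kif21b, which was 2.53 and 4.54 FPKM in cadmium sperm and 0.30 to 1.29 in control sperm 2 to 4 (log2 fold change 1.81, SE 1.22), though 3.87 in control sperm 1. Klc3 was at 10.15 and 14.26 FPKM in cadmium sperm and 0 to 6.87 in control sperm 2 to 4 (1.63, SE 1.40), with control sperm 1 above both at 23.83. Kifc5b differed by 0.43 (SE 0.59). In all, 3 members, Kif17, Kif21b and Klc3, had every cadmium sample above every control pool of the fit and none below, where 21.7% of all features were so above and 1.84% below. The median log2 fold change was 0.43 over members and 0.43 over all features, and 0.26 and 0.27 with size factors of the RLE kind, so that these values stand near a shift shared by all RNAs. Both cadmium sperm samples held more counts (1155491 and 1254477) than any control pool (at most 1058017), and the part of depth was not tested.

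**Figure D5:**
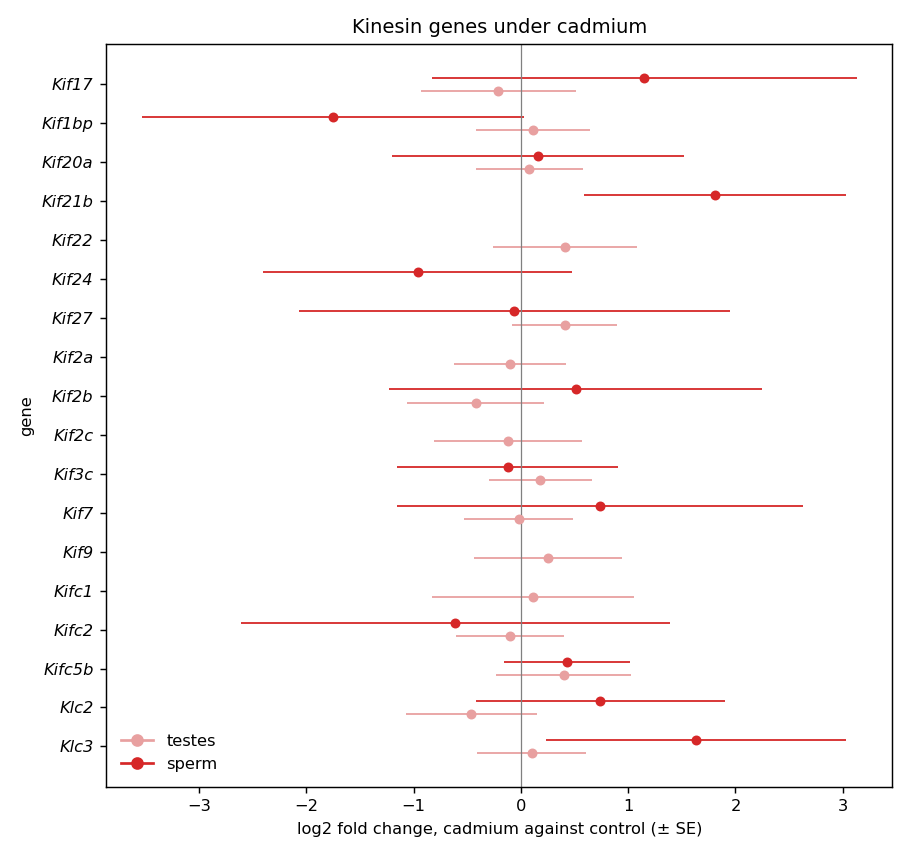
Log2 fold change of cadmium against control with its SE, in testes (pale) and sperm (dark), for each kinesin gene tested in at least 1 tissue. The testes values lie between -0.46 and 0.41, and the sperm values spread from -1.75 to 1.81 with wider bars.

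The test of the cadmium effect in sperm against that in testes, in 1 model of 9 samples, called none of the 18 members tested, where 0.0396% of 32811 features were called. No member had an unadjusted p under 0.05 by edgeR, where 3.77% of all features did. The lowest was 0.214, for Kif1bp (-1.87, with an SE of 1.5). Kif2a had the largest value (3.76, SE 3.16), from 2.1 counts in cadmium sperm against 0 in control sperm. With the fit kept to RefSeq mRNA genes, the median over members went from -0.21 to 0.45 and that over all features from 0.36 to 0.92, while with RLE size factors that over members was -0.20.

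The wider transport machinery was read through lists fixed beside the members. Of 28 genes of cytoplasmic dynein and dynactin, the minus-end motor that works against kinesins, 11 were tested in each tissue comparison. Dynlt1a, a light chain that was at 27.13 to 38.39 FPKM in testes and 0 to 4.44 in sperm, was lower in sperm in control (log2 fold change -4.67, SE 0.89, edgeR adjusted p = 4.87e-05) and cadmium mice (-3.55, SE 0.62, edgeR adjusted p = 2.26e-07), and its relative Dynlt1f in control mice. None was higher, and the heavy chain Dync1h1 stood at 1.14 to 3.89 FPKM in sperm and 4.40 to 5.03 in testes. Dynlt1f passed the filter in control mice only through testes samples.

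Of 16 genes of alpha and beta tubulin, the track itself, 2 were higher and 2 lower in control sperm of 10 tested, and 2 higher and 3 lower in cadmium sperm of 12. Tuba1b was the most abundant, at 240.74 to 603.69 FPKM in sperm and 56.24 to 87.97 in testes (control log2 fold change 1.71, SE 0.62, edgeR adjusted p = 0.0461, and cadmium 3.06, SE 0.63, edgeR adjusted p = 1.63e-05), and Tubb5 was higher as well. The testis tubulins Tuba3a and Tuba3b were at 0 in all control sperm and 2.83 to 7.42 FPKM in testes and were called lower in both comparisons, and Tubb4b was lower in cadmium sperm. Only testes samples carried Tuba3a and Tuba3b through the filter. Tuba3a and Tuba3b are near copies of each other, so their split is uncertain.

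Of 22 adaptors and regulators of kinesins, 4 were tested in control mice and none was called, and 5 in cadmium mice, where Bicd2 was higher in sperm (3.63, SE 0.90, edgeR adjusted p = 0.000462), an adaptor that links cargo to dynein and kinesin. Bicd2 passed the filter only through cadmium sperm (3.37 and 1.9 FPKM), with cadmium testes at 0.23 and 0.24. Mapk8ip1, the JNK scaffold that binds light chains, was at 3.44 to 6.79 FPKM in testes and 0 to 4.74 in sperm. Of 21 spindle partners, 6 were tested in each comparison. Ccnb1, a cyclin that passed the filter only through testes samples, was lower in control sperm (edgeR adjusted p = 0.0461), and no other was called. Plk1, a mitotic kinase and the most abundant of them in testes, was at 7.99 to 11.15 FPKM there and 0 to 23.82 in sperm, and was not called. Neither cadmium comparison within a tissue called any gene of these lists, and in the test of the cadmium effect between tissues 1 of them, the adaptor Mapk8ip3, was called (edgeR adjusted p = 0.0313), with values above 0 only in control testes 2 (1.97 FPKM) and cadmium sperm 2 (1.75). Cenpe, the kinesin outside the name rule, was at 0 to 0.36 FPKM in all samples.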

How the data were processed

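Per the labels and the study's methods, ribosomal RNA was removed with RNase H from total RNA of sperm and testes, and libraries that keep the strand were read from both ends. The study's methods name SOAPaligner/SOAP2, and the submitters' processing notes name HISAT and mm10. The counting tool is not given in the sources used here. The table that the authors deposited for a sample lists transcripts above 0, each with an expected count, an estimate that was not normalized, and an FPKM, scaled by the authors to transcript length and library size. Transcripts missing from a table were set to 0. In 4 tables some gene names had turned into dates, and 39 transcripts were named from the other tables by transcript identifier.

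Expected counts and FPKM were summed by gene and RNA class. Rounded expected counts went into edgeR 4.0.16 (quasi-likelihood test, TMM normalization, R 4.3.3), over features that reached 1 FPKM in 2 or more of the samples compared, known and predicted mRNAs and lncRNAs alike. P-values were adjusted over all features by the Benjamini-Hochberg method, and a feature was called at an adjusted p under 0.05 and more than 2-fold. SE was worked back from the test, as the log2 fold change over the root of F. Only the samples of a comparison entered its fit, except for the difference of the cadmium effects. Floors are 3 counts over a group, and counting intervals are exact at 95%. The test was also run on simulated counts with changes only in well-counted features, a check that does not reach members with few counts.

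Alternatives were DESeq2 1.42.0, limma 3.58.1 on log2(FPKM + 1) and log2(FPKM + 0.1), RLE size factors, no filter, RefSeq mRNA genes only, single transcripts, all groups in 1 model, control sperm 1 added, each replicate left out, and the replicate number as a block. The block fits of control sperm also held control sperm 1. Adding Kifc1 and Kifc5b into 1 feature was chosen after the data were seen. Named were the 20 members highest in control testes, the 10 highest in control sperm 2 to 4, members called, and those whose role the text explains, and of the other lists the highest in testes and those called. The members and lists were chosen with earlier results of these data known. Promoters came from RefSeq's GRCm38.p6 table. Python 3.11.15, numpy 2.4.6, pandas 2.3.3, scipy 1.17.1 and matplotlib 3.10.9 were used.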

Additional observations from a re-analysis of the deposited data

Results flagged for a closer look

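Among the 16 kinesin genes with at least 3 counts in some control sperm pool, 5 had 1 pool standing apart from the other 3 by Dixon's criterion on the gap to the nearest pool over the whole range. Chance alone marks about 1 in 20 groups of continuous values, a rate that does not carry over to counts as sparse as these, where 3 of the 5 genes were at 0 in every other pool. Kif1bp reached 15.3 FPKM (19 counts) in control sperm 4, against 0 to 1.55 in the other pools. Kif27 was at 3.54 FPKM (8 counts) and Kif21a at 0.96 (3 counts) in the same pool, against at most 0.21 and 0. Kif13a was at 0.55 FPKM and Kif2b at 1.69, with 4 counts each, in control sperm 2, the deepest control pool, and both were at 0 in the other 3. Of these 5 genes, Kif1bp, Kif27 and Kif2b were tested in control mice and not called, while Kif13a and Kif21a did not pass the filter.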

How the results depend on the processing

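In control mice, 4 members were called between sperm and testes. That number was 2 without the filter, 2 with limma at a pseudocount of 0.1, and 1 to 4 with a replicate left out. In cadmium mice, 10 members were called, against 4 with limma at a pseudocount of 0.1, 4 with all groups in 1 model, and 0 to 8 with a replicate left out. In the other alternatives, apart from the replicate block in control mice given below, the count stayed within 1.5 times. No member was called for cadmium in testes, in sperm, or between them under any alternative or with any replicate left out. Kifc5b passed under all 11 alternatives in control mice and all 10 in cadmium mice, with log2 fold changes of 3.30 to 4.52 and 3.80 to 4.44. Kif3c and Kif7 were called in 9 of 11 in control mice and 10 of 10 in cadmium mice. These counts do not cover the fits with a replicate left out. Among those, Kifc5b, Kif3c and Kif7 each lost the call in some, in control and in cadmium mice, as given above. Summed by gene, no member that the main fit of a comparison tested and some setting called changed sign in that comparison. The signs of the other members, among them Kif5c, Kif1a and Kifc1 in cadmium mice, were not followed across the alternatives. By single transcript, Kif20a NM_009004 was at 7.21 in control mice against -1.46 for the gene, and Kif17 NM_001190978 at -0.14 in cadmium mice against 0.44. Where leaving out a replicate left 1 sample in a group, that sample was assumed to vary like the other group. The summed FPKM ratio of sperm to testes was 0.698 with control sperm 1 added, against 0.635, and 0.583 to 0.697 with a replicate left out. In cadmium mice it was 0.631 as a share of RefSeq mRNA counts, against 0.825, and 0.748 to 0.902 with a replicate left out. The causes were not tested. Members with fewer than 3 counts in a sample cannot be read at this depth.

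With the replicate number as a block, 2 members were called in control mice, Kifc5b and Kif3c. The adjusted p was 0.0899 for Kif7 and 0.61 for Kif2a by edgeR. Block fits of control sperm also took control sperm 1 back in, so the part of the block alone was not tested. In the other comparisons the count stayed within 1.5 times. Same-numbered samples had correlations of deviations of -0.056 for control sperm and testes and 0.091 for cadmium sperm and testes. For cadmium and control testes the value was 0.446, and for cadmium and control sperm -0.037. Only samples numbered 1 and 2 entered these values, so control sperm 1 was among them. The main fits did not take the numbers into account, and the labels tie no numbers to a shared batch. By the study's methods the control testes came from the mice of the sperm pools, but no pool number is tied there to a testes number.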
